A study of Mus musculus with 9 samples.

Results

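The 10 genes described here are core components of the Notch pathway: the receptors Notch1, Notch2, Notch3 and Notch4, the ligands Jag1, Jag2 and Dll1, and the target genes Hes1, Hey1 and Heyl. They were chosen by name, with earlier results of these data known. All 10 were found among the 19938 genes measured, and each was read by 1 probe set that names it alone. Expression was measured on 9 Affymetrix arrays of D2.OR, a mouse mammary tumor cell line known for dormancy after it spreads. According to the sample titles, there are 3 arrays of cells in fibrillar collagen I, 3 of cells in collagen I that is non-fibrillar, and 3 of cells in Matrigel, a basement membrane extract rich in laminin. The growth label of the Matrigel arrays names non-fibrillar collagen I, so that group rests on its titles. The design text speaks of the collagens alone and the Matrigel accession numbers form a run of their own, so any batch that goes with these arrays and the effect of Matrigel cannot be told apart. All groups are the same line without other treatment given in the labels. Whether replicates were grown as separate cultures is not stated in the labels, and the p-values reflect array-to-array spread alone, some or all of which may be technical.

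Notch signalling passes between touching cells. A ligand of the Jagged or Delta family on one cell pulls on a receptor on its neighbour, the receptor is cut first by the protease ADAM10 and then by gamma-secretase, and the freed intracellular part enters the nucleus, where it joins the DNA-binding protein RBPJ and Mastermind coactivators and switches on repressor genes of the Hes and Hey families. In the mammary gland Notch signals are known for a part in the choice between luminal and basal cells, and Notch4 was found as a site of viral integration in mouse mammary tumors.

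The deposited values are log2 expression after RMA, so a difference of 1 is a doubling. Column medians lay between 5.98 and 6.05, and Pearson's r across all probe sets, which are not independent replicates, was 0.994 to 0.996 within groups and 0.992 to 0.996 between groups. No detection calls were used: of the 10 genes, Jag2 and Heyl had means below the median of all genes (6.44) and none lay below the 25th percentile (4.87), so dim members may be measured less surely. The epithelial keratins Krt8 and Krt18 had values above 12 on all 9 arrays, while Epcam, another epithelial marker, lay at 5.8 to 6.2.

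Notch1 had the largest difference of the 10 genes both between the collagens and between non-fibrillar collagen and Matrigel. It was lower in non-fibrillar collagen than in fibrillar collagen or Matrigel, and no difference between those last groups was detectable. Hey1 was highest in Matrigel and lower in both collagens, and Notch3 and Dll1 were lower in non-fibrillar collagen than in Matrigel. Hes1, the other target that passed a test, went the opposite way to Hey1, highest in non-fibrillar collagen. The calls of Dll1, of Hes1 and of Hey1 in fibrillar collagen were each lost in several refits without 1 array, as given below. By limma with Benjamini-Hochberg adjustment over all genes, 1 of the 10 was higher and 0 lower in fibrillar against non-fibrillar collagen, where 2.71% of all genes were higher and 3.69% lower (6.4% in all). This fit did not use the replicate numbers. With a block for them, 3 of the 10 were higher and 0 lower, beside 544 and 741 of all 19938 genes. In fibrillar collagen against Matrigel 0 were higher and 1 lower, where 1.45% of all genes were higher and 2.37% lower (3.82% in all, and 18.1% at an unadjusted p under 0.05). In non-fibrillar collagen against Matrigel 1 was higher and 4 lower, where 6.75% of all genes were higher and 7.07% lower (13.8% in all). All these shares include dim genes, whereas only 2 of the 10 had means below the median of all genes. Among the 50% of genes at or above that median, 2211, 1264 and 3428 were called in the 3 comparisons, in the same order. Members called there were 1, 1 and 5.

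**Figure D1:**
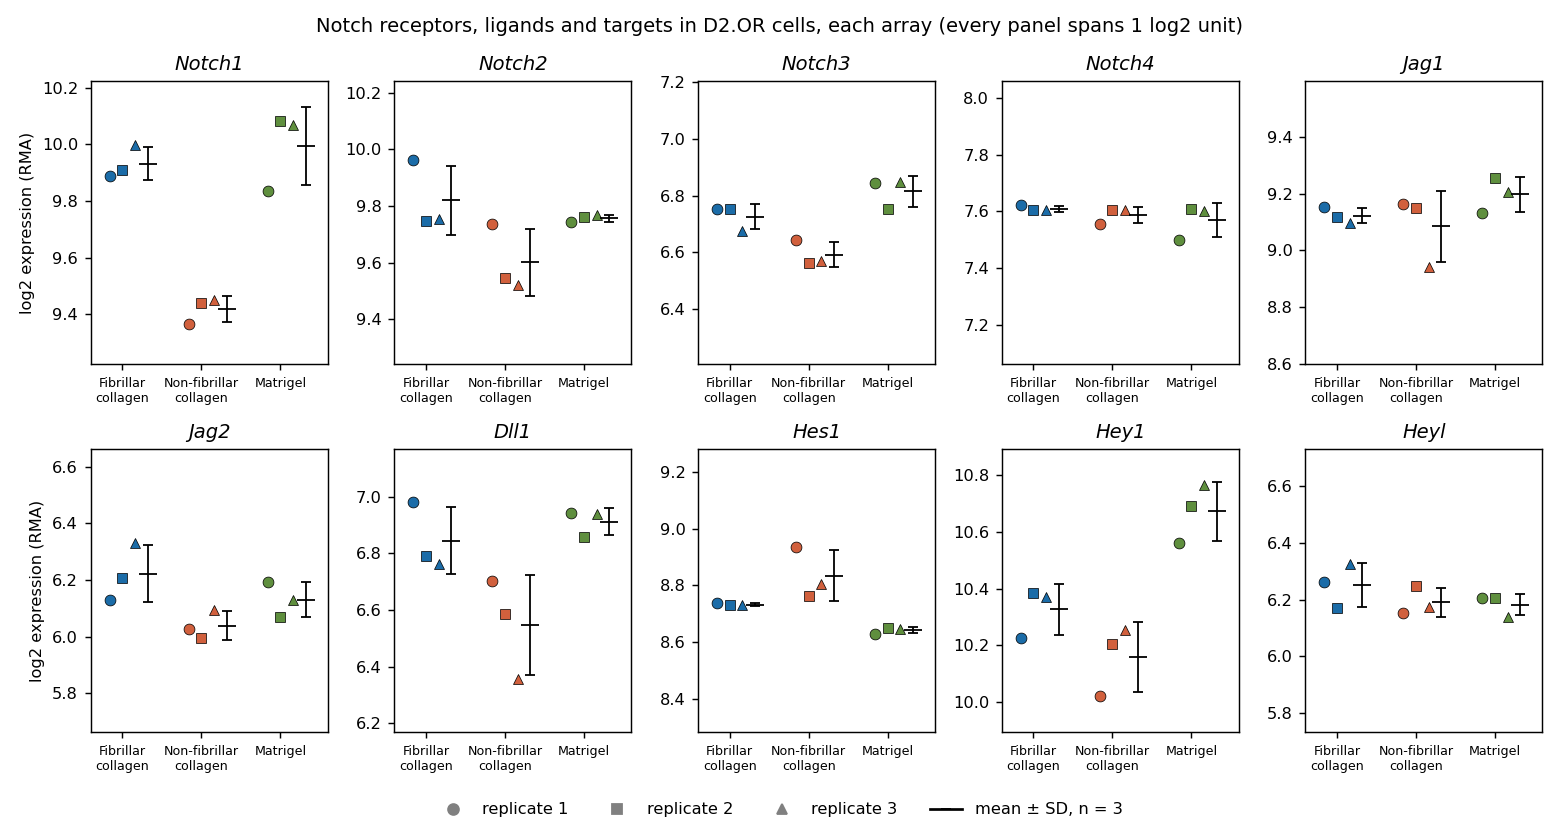
Log2 expression of each of the 10 genes on each array, with fibrillar collagen at the left, non-fibrillar collagen in the middle and Matrigel at the right of each panel; point shape gives the replicate number and the black bar the mean ± SD of 3 arrays. Notch1 sits at 9.36 to 9.45 in non-fibrillar collagen, below all other arrays, and Hey1 at 10.56 to 10.77 in Matrigel, above all other arrays.

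Among the receptors, Notch1 (probe set 10481056), a receptor with known roles in many epithelia, read 9.89, 9.91 and 9.997 in fibrillar collagen, 9.36, 9.44 and 9.45 in non-fibrillar collagen and 9.84, 10.08 and 10.07 in Matrigel. The non-fibrillar arrays lay below all 6 others, and the fibrillar and Matrigel arrays overlapped. Notch1 was 1.43-fold higher in fibrillar than in non-fibrillar collagen (log2 difference 0.51 ± 0.046 SE, n = 3 each, adjusted p = 0.0053) and kept the call whichever of the 6 arrays was left out (adjusted p 0.025 to 0.044). It was 1.49-fold lower in non-fibrillar collagen than in Matrigel (-0.58 ± 0.067, adjusted p = 0.00054), a call that also held without any 1 of the 9 arrays. Between fibrillar collagen and Matrigel the difference was -0.06 ± 0.067 (adjusted p = 0.66), with a 95% interval from -0.21 to 0.09. In these bulk samples fewer cells that express a gene and less RNA per cell cannot be told apart.

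Notch2 (probe set 10494595), a second broadly expressed receptor, read 9.96, 9.75 and 9.75 in fibrillar collagen, 9.74, 9.55 and 9.52 in non-fibrillar collagen and 9.74, 9.76 and 9.77 in Matrigel. Its non-fibrillar arrays lay below both other groups, narrowly so, since replicate 1 stood above replicates 2 and 3 in both collagens. The difference between the collagens was 0.22 ± 0.083 in favour of fibrillar collagen and did not pass (adjusted p = 0.19). With a block for replicate number it did (adjusted p = 0.041); the same-numbered differences were 0.22, 0.20 and 0.23. Notch2 did not pass in non-fibrillar collagen against Matrigel (-0.16 ± 0.072, adjusted p = 0.21) or in fibrillar collagen against Matrigel (0.06 ± 0.072, adjusted p = 0.69).

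Notch3 (probe set 10449775), a receptor of vascular mural cells and of luminal progenitors in the mammary gland, read 6.75, 6.75 and 6.67 in fibrillar collagen, 6.64, 6.56 and 6.57 in non-fibrillar collagen and 6.84, 6.75 and 6.85 in Matrigel. The order of the groups was that of Notch1 over a narrower span, and the non-fibrillar arrays were again the lowest. Notch3 was 1.17-fold lower in non-fibrillar collagen than in Matrigel (-0.22 ± 0.046, adjusted p = 0.00998; 0.012 to 0.042 when 1 array was left out). Its difference between the collagens was 0.14 ± 0.042 (adjusted p = 0.12), and that of fibrillar collagen from Matrigel -0.09 ± 0.046 (adjusted p = 0.34). Notch4 (probe set 10444352), best known from endothelial cells, was nearly flat, at 7.50 to 7.62 over all 9 arrays, with no difference past 0.04 in size and 95% intervals within -0.08 and 0.13. A further 6 probe sets name Notch4 beside another symbol and were not used, so this rests on 1 probe set.

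Of the ligands, Dll1 (probe set 10448034), a Delta ligand, read 6.98, 6.79 and 6.76 in fibrillar collagen, 6.70, 6.58 and 6.36 in non-fibrillar collagen and 6.94, 6.86 and 6.94 in Matrigel. The non-fibrillar group was lowest without overlap, but its replicate 3 lay well under the other two. Dll1 was 1.29-fold lower in non-fibrillar collagen than in Matrigel (-0.36 ± 0.088, adjusted p = 0.022). That call was lost without non-fibrillar replicate 2 or 3 or without any of the Matrigel arrays (adjusted p up to 0.070), and the difference was -0.27 without non-fibrillar replicate 3. Between the collagens Dll1 was at 0.30 ± 0.10 (adjusted p = 0.15), and a block for replicate number gave an adjusted p of 0.046. Fibrillar collagen and Matrigel overlapped (-0.07 ± 0.088, adjusted p = 0.73).

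Promoter sequence is shown for Notch1, Notch3 and Dll1, the receptors and the ligand that were lower together in non-fibrillar collagen than in Matrigel. RefSeq promoters (GRCm38.p6) were on hand for 7 of the 10 genes, all but Hes1, Hey1 and Heyl. Each run is the 250 bases before the annotated start, 5′ to 3′ on the gene's own strand, for Dll1 that of the more upstream of 2 starts, and capitals mark matches on either strand to sites known for Hes and Hey proteins, the N-box CACNAG and the class C site CACGCG.
Notch1 (chr2:26503823-26504072, minus strand): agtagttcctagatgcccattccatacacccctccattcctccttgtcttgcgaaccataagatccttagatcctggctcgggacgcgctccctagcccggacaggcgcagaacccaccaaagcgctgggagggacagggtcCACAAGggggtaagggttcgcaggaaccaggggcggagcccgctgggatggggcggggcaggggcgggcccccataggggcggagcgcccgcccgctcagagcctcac
Notch3 (chr17:32166891-32167140, minus strand): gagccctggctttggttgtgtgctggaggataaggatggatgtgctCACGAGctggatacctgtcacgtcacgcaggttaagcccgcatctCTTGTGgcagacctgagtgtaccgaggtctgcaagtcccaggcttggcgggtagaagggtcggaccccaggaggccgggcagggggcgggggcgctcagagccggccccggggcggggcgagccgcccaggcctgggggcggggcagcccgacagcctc
Dll1 (chr17:15376933-15377182, minus strand): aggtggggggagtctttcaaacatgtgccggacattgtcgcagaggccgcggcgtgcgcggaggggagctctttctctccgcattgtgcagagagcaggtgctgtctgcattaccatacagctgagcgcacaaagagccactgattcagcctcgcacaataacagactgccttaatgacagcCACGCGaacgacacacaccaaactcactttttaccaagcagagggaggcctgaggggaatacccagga
Notch1 had 1 N-box match, whose first base is at -108 counted from -1 at the base before the start, Notch3 had 2, at -204 and at -159 (on the other strand), and Dll1 had 1 class C match at -68, while the window of its other start had none of the 4 motifs. Genes that did not pass held such sites too: Jag1 had 2 class C matches and Notch2 had 1 N-box and 1 class C match, while Jag2 and Notch4 had none. No match overlapped another. The N-box occurred in 36.7% and the class C site in 7.6% of all 32851 windows of this length. The RBPJ core TGGGAA (21.6% of windows) and the E-box CACGTG (6.0%) were not in these 3 windows, which says only that these letters are not there. GC content was 66.0%, 68.8% and 56.0% for Notch1, Notch3 and Dll1, where the median window had 52.4%.

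The Jagged ligands did not pass in any comparison. Jag1 (probe set 10488060) read 9.15, 9.12 and 9.10 in fibrillar collagen, 9.16, 9.15 and 8.94 in non-fibrillar collagen and 9.13, 9.26 and 9.21 in Matrigel, so that only non-fibrillar replicate 3 stood apart. Its differences were 0.04 ± 0.066 between the collagens, -0.08 ± 0.063 for fibrillar collagen against Matrigel and -0.11 ± 0.063 for non-fibrillar collagen against Matrigel (adjusted p 0.31 to 0.77). Jag2 (probe set 10402808) read 6.13, 6.21 and 6.33 in fibrillar collagen, 6.03, 5.99 and 6.09 in non-fibrillar collagen and 6.19, 6.07 and 6.13 in Matrigel. The collagen groups of Jag2 did not overlap, with a difference of 0.18 ± 0.060 that did not pass (adjusted p = 0.14; 0.080 at the lowest over all alternatives).

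Among the targets, Hey1 (probe set 10497203), a repressor induced by Notch in many cell types, read 10.22, 10.38 and 10.37 in fibrillar collagen, 10.02, 10.20 and 10.25 in non-fibrillar collagen and 10.56, 10.69 and 10.77 in Matrigel. Every Matrigel array lay above every collagen array, while the collagens overlapped, with replicate 1 the lowest in each of the 3 groups. Hey1 was 1.43-fold lower in non-fibrillar collagen than in Matrigel (-0.51 ± 0.076, adjusted p = 0.0020), and this held without any 1 of the 9 arrays (adjusted p up to 0.012). In fibrillar collagen it was 1.27-fold lower than in Matrigel (-0.35 ± 0.076, adjusted p = 0.038). The fibrillar call was lost without any of the fibrillar arrays, without non-fibrillar replicate 2 and without Matrigel replicate 2 or 3 (adjusted p up to 0.12), and also when only the 6 arrays compared were fitted (adjusted p = 0.061). The collagens differed by 0.17 ± 0.075 in Hey1, which did not pass (adjusted p = 0.26; 0.076 when blocked by replicate number).

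Hes1 (probe set 10434925), the repressor most often used as a readout of Notch activity and also driven by other signals, read 8.74, 8.73 and 8.73 in fibrillar collagen, 8.94, 8.76 and 8.80 in non-fibrillar collagen and 8.63, 8.65 and 8.65 in Matrigel. None of the 3 groups overlapped, with non-fibrillar collagen highest and Matrigel lowest. Hes1 was 1.14-fold higher in non-fibrillar collagen than in Matrigel (0.19 ± 0.048, adjusted p = 0.025). The call was lost without non-fibrillar replicate 1 or without any of the Matrigel arrays (adjusted p up to 0.069), and in the fit of those 6 arrays (adjusted p = 0.062). Between the collagens the difference was -0.10 ± 0.051 (adjusted p = 0.31) and between fibrillar collagen and Matrigel 0.09 ± 0.048 (adjusted p = 0.36). Heyl (probe set 10507840), a relative of Hey1, stayed at 6.14 to 6.33 over all arrays and did not pass anywhere; its largest difference was 0.07 ± 0.051, for fibrillar collagen against Matrigel (adjusted p = 0.51).

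**Figure D2:**
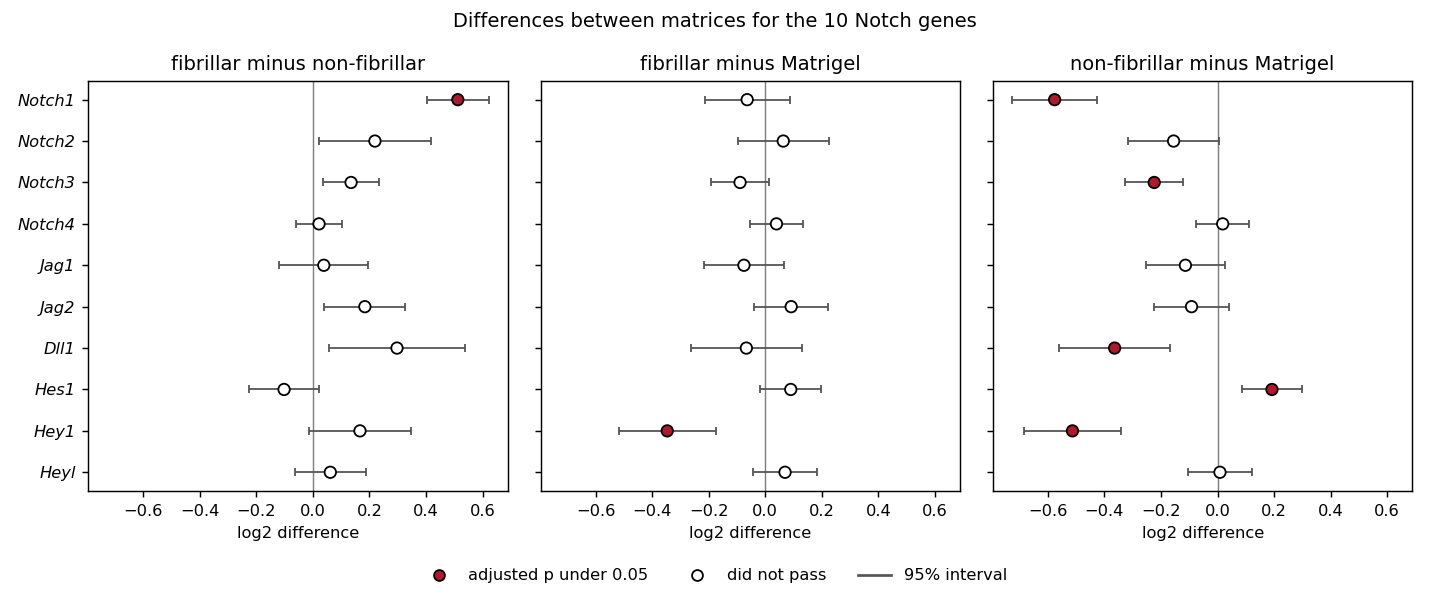
Log2 differences of the 10 genes in the comparisons of fibrillar with non-fibrillar collagen (left), fibrillar collagen with Matrigel (middle) and non-fibrillar collagen with Matrigel (right); points are limma estimates, bars 95% intervals and filled points passed at an adjusted p under 0.05. Notch1 passed at 0.51 between the collagens, Hey1 at -0.35 in fibrillar collagen against Matrigel, and Notch1, Hey1, Dll1, Notch3 and Hes1 in non-fibrillar collagen against Matrigel.

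Set side by side over the whole group, 9 of the 10 differences between fibrillar and non-fibrillar collagen were positive. Notch4 (0.02), Jag1 (0.04) and Heyl (0.06) were among these 9 but lay near 0. The median over the 10 was 0.15 between fibrillar and non-fibrillar collagen, against 0.0080 for all genes. The arrays of those groups did not overlap for 6 of the 10, namely Notch1, Notch2, Notch3, Jag2 and Dll1 upward and Hes1 downward, where 25.2% of all genes did not overlap. Against Matrigel, the median was -0.01 for fibrillar collagen (all genes 0.0028) and -0.14 for non-fibrillar collagen (all genes 0.00061). There 2 of the 10 did not overlap for fibrillar collagen, 1 upward and 1 downward (9.05% and 11.3% of all genes, 20.4% in all) and 6 of the 10 for non-fibrillar collagen (28.4% of all genes). These comparisons share arrays, so they are not independent of each other. Over all genes the split of calls moved with the scaling. Between the collagens 541 were higher and 736 lower, but 640 and 612 after a second quantile normalization and 421 and 968 after centring on array medians. For fibrillar collagen against Matrigel the split was 289 and 473, but 373 and 366 after that quantile normalization. Non-fibrillar collagen against Matrigel gave 1345 higher and 1410 lower, but 1841 and 1092 after centring. None of these scalings changed a call among the 10 genes, though some ended calls of other pathway genes named below. Centring ended those of Tle3 and Snai2 between the collagens, Hey2 in fibrillar collagen against Matrigel, and Epn1, Mib1, Maml3 and Ncstn in non-fibrillar collagen against Matrigel. The second quantile normalization ended those of Hey2, Snai2 and Aph1b in fibrillar collagen against Matrigel, and Hdac2, Maml3 and Ncstn in non-fibrillar collagen against Matrigel.

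Arrays of the collagens that carry the same number deviated together from their group means (r across genes 0.22, 0.14 and 0.24), which was taken as pairing. This was not particular to the collagens, since r was 0.253 for replicate 1 of fibrillar collagen and Matrigel. When blocked by replicate number, 3 of the 10 genes passed between the collagens, Notch2 and Dll1 beside Notch1. The calls of Notch2 and Dll1 rest on this block, which the main fit and its refits without 1 array did not use. The same-numbered differences of Notch1 were 0.52, 0.47 and 0.55, and those of Dll1 0.28, 0.21 and 0.41. Notch3 differed by 0.11, 0.19 and 0.10, Jag2 by 0.10, 0.21 and 0.24 and Hey1 by 0.20, 0.18 and 0.12, all positive, while Hes1 was at -0.20, -0.03 and -0.08. The others were not positive in every pair: Notch4 was at 0.065, 0.0 and 0.0, Jag1 at -0.011, -0.031 and 0.158, and Heyl at 0.111, -0.079 and 0.153.

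**Figure D3:**
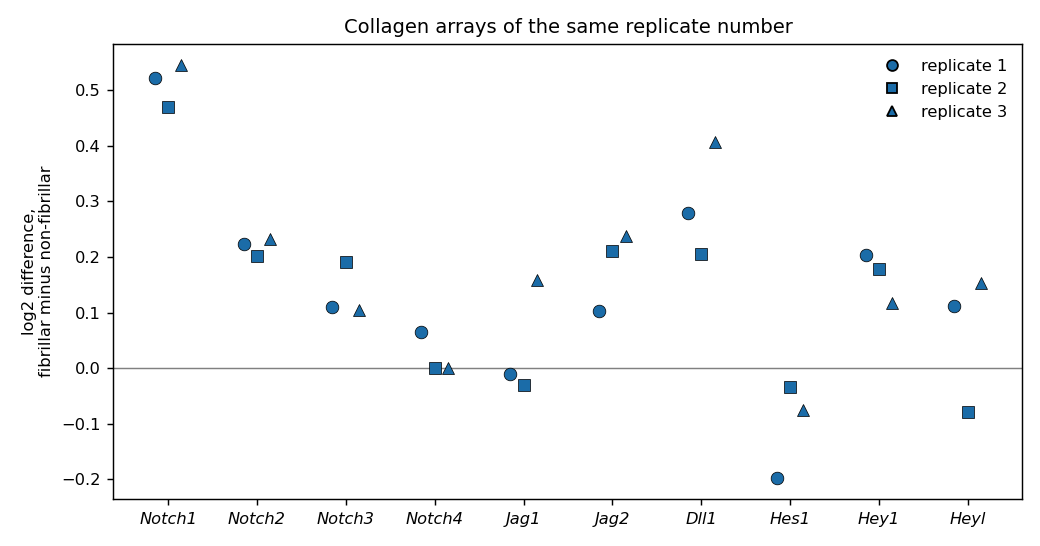
Log2 difference, fibrillar minus non-fibrillar collagen, between arrays of the same replicate number for each of the 10 genes; point shape gives the number and the line marks 0. Notch1 lies at 0.47 to 0.55 in all 3 pairs and Notch2 at 0.20 to 0.23, whereas Hes1 is below 0 in each pair.

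The rest of the pathway was read from 8 lists by role, holding 76 genes of which 72 were measured. Between fibrillar and non-fibrillar collagen 7 were higher and 0 lower (9.7%, against 6.4% of all genes), with a median of 0.05. Against Matrigel, 1 was higher and 3 lower in fibrillar collagen (5.6%, against 3.82%), and 7 were higher and 17 lower in non-fibrillar collagen (33.3%, against 13.8%), with a median of -0.07. Many of these calls were narrow, as given below for those between the collagens. The shares over all genes include dim genes. Next, only the 50% of genes at or above the median were kept. Calls in non-fibrillar collagen against Matrigel then rose from 2755 to 3428, though fewer genes were tested. Between the collagens they rose from 1277 to 2211, and in fibrillar collagen against Matrigel from 762 to 1264. The share of tested genes that was called thus rose more than these counts. Neither these lists nor the 10 genes were set against genes of like level. The higher shares in the lists are therefore not shown to be particular to the pathway.

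Of the 5 other ligands, only the Delta ligand Dll4, known from sprouting vessels, passed, and only in non-fibrillar collagen against Matrigel. Dll4 read 7.69, 7.99 and 8.004 in fibrillar collagen, 7.87, 8.47 and 8.29 in non-fibrillar collagen and 7.34, 7.33 and 7.67 in Matrigel. It was thus highest in the matrix in which Dll1 was lowest, 1.70-fold above Matrigel (0.76 ± 0.153, adjusted p = 0.0092), and its collagen groups overlapped (-0.31 ± 0.162, adjusted p = 0.32). Among 8 measured genes for receptor cleavage, none passed between the collagens, where the sheddase gene Adam10 came nearest (0.14 ± 0.035, adjusted p = 0.072), and 3 were lower in non-fibrillar collagen than in Matrigel. These were the gamma-secretase subunit genes Aph1b (-0.26 ± 0.046) and Ncstn (-0.18 ± 0.052) and Adam10 (-0.22 ± 0.045). Aph1b and Adam10 kept the call without any 1 array, and Ncstn only without non-fibrillar replicate 3 or Matrigel replicate 1. Aph1b was also lower in fibrillar collagen than in Matrigel (-0.21 ± 0.046, adjusted p = 0.039), a call lost whichever array was left out.

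Of 9 genes for ligand ubiquitination and endocytosis, the step that lets a ligand pull on its receptor, Neurl1b, a ubiquitin ligase of Notch ligands, was higher in fibrillar than in non-fibrillar collagen. It read 8.34, 8.49 and 8.45 in fibrillar collagen, 7.92, 8.12 and 8.10 in non-fibrillar collagen and 8.60, 8.73 and 8.64 in Matrigel. The groups were fully apart, in the order of Notch1. Neurl1b differed by 0.38 ± 0.070 between the collagens (adjusted p = 0.030, up to 0.12 and lost whichever array was left out) and was 1.52-fold lower in non-fibrillar collagen than in Matrigel (-0.61 ± 0.066, adjusted p = 0.00035, kept without any 1 array). Against Matrigel 3 more were lower in non-fibrillar collagen, among them the dynamin Dnm2 (-0.20 ± 0.041) and the ligand-activating ubiquitin ligase Mib1 (-0.18 ± 0.051), with the epsin Epn1 at -0.19 ± 0.048; another epsin gene, Epn2, was higher at 0.20 ± 0.056 and is named after its value was seen. Of these, Dnm2 alone kept the call without any 1 array; Epn1 lost it without any non-fibrillar or Matrigel array, Mib1 without any array but fibrillar replicates 1 and 3, and Epn2 without any array but Matrigel replicate 1. No gene of the 5 for receptor glycosylation passed in any comparison; Poglut1 had the smallest p between the collagens (-0.13, adjusted p = 0.10).

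Of 9 genes of the nuclear complex, the acetyltransferase coactivators Crebbp (0.34 ± 0.047, adjusted p = 0.015) and Ep300 (0.34 ± 0.070, adjusted p = 0.043) were higher in fibrillar than in non-fibrillar collagen. Crebbp read 10.65, 10.65 and 10.55 in fibrillar collagen, 10.29, 10.33 and 10.23 in non-fibrillar collagen and 10.50, 10.65 and 10.65 in Matrigel, so that its non-fibrillar arrays were the lowest and the other 2 groups overlapped. Both calls were fragile between the collagens, Ep300 losing it whichever array was left out and Crebbp without any array but fibrillar replicate 3. In non-fibrillar collagen against Matrigel, Crebbp (-0.32 ± 0.054), Ep300 (-0.30 ± 0.073), and the Mastermind coactivator gene Maml2 (-0.24 ± 0.062) were lower; a further Mastermind gene, Maml3, was lower at -0.26 ± 0.073 and is named after its value was seen. Crebbp kept this call without any 1 array. Ep300 lost it without non-fibrillar replicate 1 or 3 or Matrigel replicate 2 or 3, Maml2 without non-fibrillar replicate 1 or 3 or any Matrigel array, and Maml3 without fibrillar replicate 3, non-fibrillar replicate 2 or 3 or any Matrigel array. The second probe set of Maml2 differed by -0.13, and with both averaged Maml2 did not pass (adjusted p = 0.064). Rbpj, the DNA-binding partner of every Notch receptor, was higher (0.33 ± 0.062, adjusted p = 0.0071). Rbpj has 2 probe sets that disagreed: the one used differed by 0.33 and the other, far dimmer, by -0.04, and with both averaged it did not pass (adjusted p = 0.091). The mouse genome also holds Rbpj pseudogenes, so its value is uncertain.

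Of 10 measured corepressor genes, Spen, which turns RBPJ into a repressor (0.26 ± 0.055, adjusted p = 0.046), and Tle3, a Groucho family corepressor of Hes and Hey proteins (0.24 ± 0.052, adjusted p = 0.0495), were higher in fibrillar than in non-fibrillar collagen, both losing the call whichever array was left out. In non-fibrillar collagen against Matrigel both were lower (-0.28 ± 0.057 and -0.23 ± 0.049), whereas the histone deacetylase genes Hdac1 (0.31 ± 0.043, with a pseudogene that could share signal) and Hdac2 (0.20 ± 0.057) were higher. Hdac2 lost its call without fibrillar replicate 2, any non-fibrillar array or Matrigel replicate 2 or 3. Of 12 genes for receptor turnover and inhibition, only Numbl, a relative of the Notch inhibitor Numb, passed, 1.30-fold lower in non-fibrillar collagen than in Matrigel (-0.38 ± 0.061, adjusted p = 0.0028).

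Of 14 measured other reported targets, Id3 (0.49 ± 0.10, adjusted p = 0.041) and Snai2 (0.25 ± 0.053, adjusted p = 0.047, and 0.058 when blocked by replicate number) were higher in fibrillar than in non-fibrillar collagen. Id3, an inhibitor of differentiation, and Snai2, a regulator of epithelial-mesenchymal transition, are both also targets of TGF-beta family signals. Id3 lost its call without any array but non-fibrillar replicate 2, and Snai2 whichever array was left out. Against Matrigel, Ccnd1, the gene of cyclin D1, which many growth signals induce, was higher in both collagens (0.45 ± 0.049 in fibrillar and 0.53 ± 0.049 in non-fibrillar collagen, both kept without any 1 array). Snai2 (-0.24 ± 0.051 in fibrillar, -0.49 ± 0.051 in non-fibrillar collagen) was lower in both, Id3 in non-fibrillar collagen (-0.80 ± 0.086), and Hes6, which antagonizes Hes1, was higher there (0.29 ± 0.051). Hey2, the closest relative of Hey1 in the set, read 6.71, 6.59 and 6.72 in fibrillar collagen, 6.60, 6.56 and 6.70 in non-fibrillar collagen and 7.03, 6.86 and 6.96 in Matrigel. Like Hey1 it was highest in Matrigel without overlap, at -0.28 ± 0.060 in fibrillar collagen (adjusted p = 0.032, up to 0.10 and lost in 6 of 9 refits without 1 array: any fibrillar array, non-fibrillar replicate 1 and Matrigel replicate 1 or 3; also lost in the fit of the 6 arrays compared, at 0.070) and -0.33 ± 0.060 in non-fibrillar collagen (adjusted p = 0.0053). The non-fibrillar value of Hey2 is named after it was seen. The Snai2 call in fibrillar collagen was lost without fibrillar replicate 2 or 3 or any Matrigel array.

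**Figure D4:**
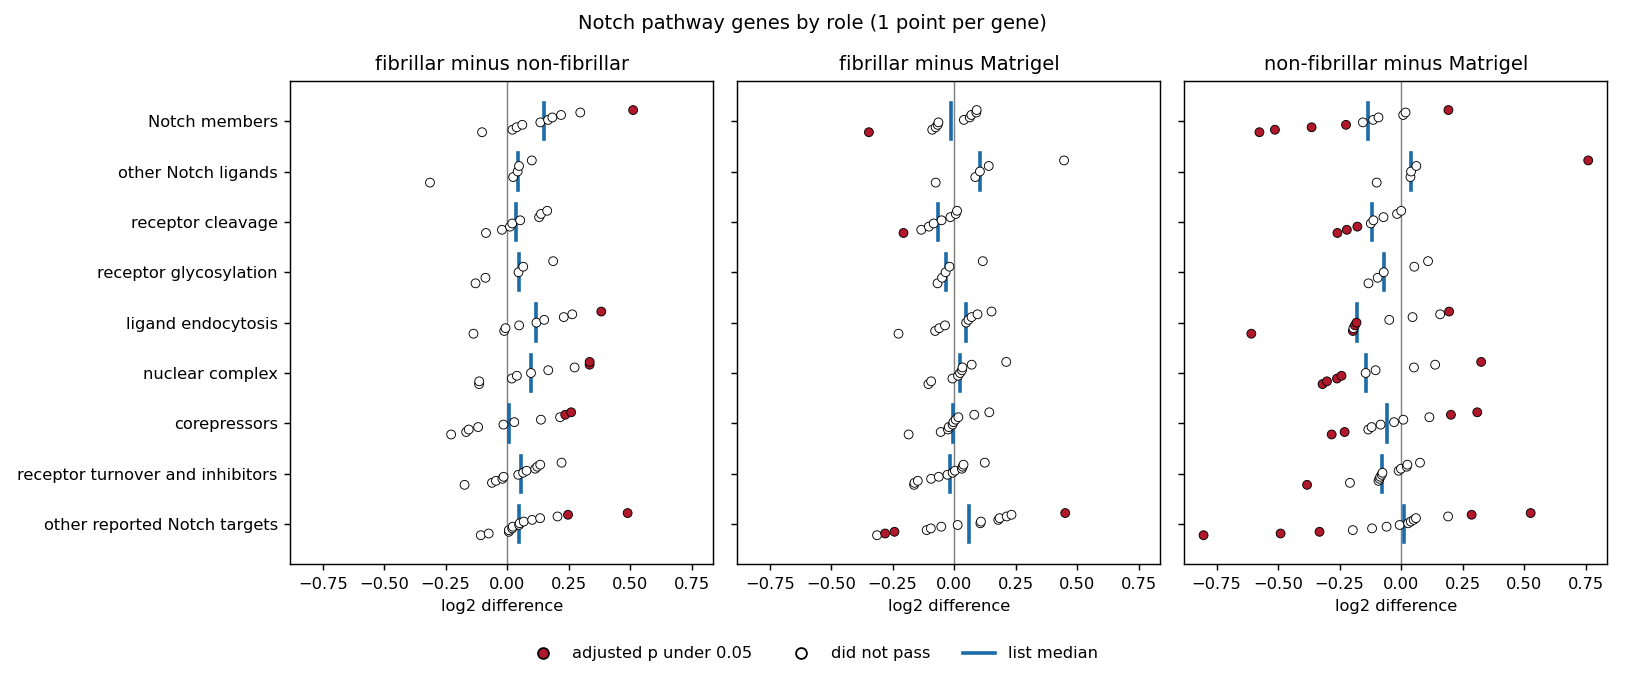
Log2 differences of the 10 genes (top row, "Notch members") and of the 72 other measured pathway genes by role, in fibrillar against non-fibrillar collagen (left), fibrillar collagen against Matrigel (middle) and non-fibrillar collagen against Matrigel (right); each point is a gene, filled where the adjusted p was under 0.05, and the bar is the list median. The 7 filled points outside the top row at the left all lie above 0, and the right panel holds most calls, 17 lower and 7 higher outside the top row.

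By the mean absolute difference between centred profiles over the 9 arrays, the genes most like Notch1 were Hectd4 (0.031 log2 units), a ubiquitin ligase family gene, the laminin chain gene Lamb2 (0.039) and Piezo1 (0.040), a mechanically gated channel, against a median of 0.247 over genes. Piezo1 averaged 10.99 in fibrillar collagen, 10.49 in non-fibrillar collagen and 11.06 in Matrigel. For Hey1 they were Pigl (0.042), of glycolipid anchor synthesis, the lipase Abhd4 (0.048) and the peroxisomal oxidase Acox3 (0.049), against a median of 0.207. These distances mix group differences with spread between arrays and carry no test.

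Markers of cells in which Notch genes are also prominent were set beside these results. Of 8 endothelial markers, 0 had a mean at or above the median of all genes, and their log2 values summed to 42.5 to 42.8 in fibrillar collagen, 41.4 to 42.5 in non-fibrillar collagen and 42.3 to 42.8 in Matrigel; the junction markers Pecam1 and Cdh5 lay at 4.85 to 5.68 on all arrays, and only Kdr passed, lower in non-fibrillar collagen than in Matrigel (-0.47 ± 0.085). Of 9 pericyte and fibroblast markers, only Pdgfra passed, in the order of Notch1: it averaged 10.91 ± 0.095 in fibrillar collagen, 10.24 ± 0.174 in non-fibrillar collagen and 11.25 ± 0.126 in Matrigel (SD, n = 3 each). The call of Pdgfra between the collagens was lost without fibrillar replicate 2 or 3 or non-fibrillar replicate 1 or 2. The 9 markers summed to 55.6 to 57.0 in fibrillar collagen, 54.4 to 55.6 in non-fibrillar collagen and 55.5 to 56.8 in Matrigel. Of these, 3 had a mean at or above the median of all genes: Pdgfra, Pdgfrb (7.44 to 8.17 on all arrays) and Col1a1 (8.55 to 8.73). Rgs5, Dcn and Lum lay at 3.21 to 4.58 throughout. Of 8 macrophage markers, Cd68, also a general lysosomal protein, had the group order of Notch1 but was also lower in fibrillar collagen than in Matrigel (-0.55 ± 0.081, adjusted p = 0.0068). It averaged 8.45 ± 0.157 in fibrillar collagen, 7.62 ± 0.055 in non-fibrillar collagen and 8.999 ± 0.108 in Matrigel. Between the collagens Cd14 was lower in the fibrillar form (-0.37 ± 0.079, lost whichever array was left out), the opposite way to Cd68. In non-fibrillar collagen Cd14 also passed as higher than in Matrigel (0.28 ± 0.073), where Cd68 was lower (-1.38 ± 0.081). That Cd14 call was lost without non-fibrillar replicate 2 or 3 or Matrigel replicate 1 or 2. Ptprc, Csf1r and Adgre1 lay at 3.82 to 5.12. The macrophage sums were 45.5 to 46.3 in fibrillar collagen, 45.0 to 45.4 in non-fibrillar collagen and 46.5 to 46.7 in Matrigel. Of 8 epithelial markers, 4 were higher and 0 lower in non-fibrillar collagen than in Matrigel, the comparison with the most Notch calls: Krt7 (1.20 ± 0.039), Krt18 (0.28 ± 0.040), Epcam (0.28 ± 0.051) and Cldn7 (0.18 ± 0.048). The first 3 kept the call without any 1 array, and Cldn7 lost it without any non-fibrillar array or Matrigel replicate 2 or 3. In fibrillar collagen against Matrigel 2 were higher, Krt7 (0.90 ± 0.039) and Krt18 (0.23 ± 0.040, lost without Matrigel replicate 2), and between the collagens Krt7 alone was lower (-0.30 ± 0.034, adjusted p 0.0502 without fibrillar replicate 3). The epithelial sums were 69.8 to 70.1 in fibrillar collagen, 70.2 to 70.4 in non-fibrillar collagen and 68.0 to 68.4 in Matrigel. The part of epithelial, Pdgfra-expressing or other cells in the Notch differences was not tested.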

How the data were processed

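The authors deposited log2 expression per probe set. Per the submitters' processing notes the tools were RMA and Affymetrix Power Tools; the version of each, like the joint or separate normalization of the 9 arrays, is not given in the sources used here. RMA draws arrays to one distribution and can hide shifts shared by most genes. Of 35512 probe sets, 21789 had 1 gene symbol in the platform annotation, 1621 had several and 12102 were not listed, and only the first kind was named. Each gene took its probe set with the highest mean (19938 genes). Differences were fitted over all genes with limma 3.58.1 in R 4.3.3 (lmFit, eBayes; two-sided; Benjamini-Hochberg; threshold 0.05), the collagens with their own 6 arrays and Matrigel comparisons with all 9. Errors are limma's SE unless given as SD. Array number limits precision; 3 against 3 in an exact permutation test could not go below p = 0.1.

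The 10 genes and all lists were chosen with earlier results of these data known. Text names every member, up to 4 passing genes a list by smallest p (otherwise the 1 with the smallest), and the 3 nearest profiles. The fit was tested on simulated data. Pairing was checked on deviations from group means; for Matrigel comparisons r was 0.045 to 0.253, not above 0.1 in every pair. Slide and scan were not analysed here, nor were background correction and scanner-level values. Alternatives covered arrays in the fit, replicate block, normalization, dim-gene filters, probe-set averaging, prior, threshold and leaving out arrays.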

Additional observations from a re-analysis of the deposited data

How the results depend on the processing

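Of 504 refitted differences of the 10 genes, 476 kept their direction and side of the threshold, 20 lost and 2 gained a call and 6 changed sign, none of the last called. The cause was not tested. Some of these settings could not move an estimate, so the 476 overstate how stable the differences are. Each member has 1 probe set, so averaging probe sets left its values unchanged. The stricter threshold used the main fit again, and the dim-gene filters left the estimates of the genes kept as they were. With the replicate block, 3 members passed between the collagens, against 1 without it, and against Matrigel the counts stayed at 1 and 5. Same-numbered arrays in the Matrigel comparisons also deviated together, with r positive in every pair (0.045 to 0.253) but not always above 0.1. Only members and listed genes called in a comparison were refitted so. Among these the block also ended the calls of Snai2 (collagens), Krt14 (fibrillar collagen) and Ncstn (non-fibrillar collagen, adjusted p = 0.056). It changed no other call among them. The sign changes were Notch4 at -0.0011 (collagens, centred on array medians) and -0.017 (non-fibrillar collagen against Matrigel, without Matrigel replicate 1; up to 0.038), Jag1 at -0.034 (collagens, without non-fibrillar replicate 3; up to 0.079 without another array), Notch2 at -0.0066 (fibrillar collagen against Matrigel, without fibrillar replicate 1; up to 0.101), and Heyl at -0.021 and -0.014 (up to 0.028; non-fibrillar collagen against Matrigel, without non-fibrillar replicate 2 or Matrigel replicate 3). At an adjusted p under 0.01, members called were 1 between the collagens, 0 for fibrillar collagen and 3 for non-fibrillar collagen against Matrigel, and genes called 168, 239 and 1419. In the fit of only the 6 arrays compared, fibrillar collagen against Matrigel gave 0 members and 460 genes (3606 at an unadjusted p under 0.05 in the fit of all arrays). Keeping genes at or above the median gave 2211 genes between the collagens and 1264 for fibrillar collagen against Matrigel, fewer genes being tested. Leaving out 1 array gave 1 member in every refit between the collagens, 0 to 1 for fibrillar collagen and 3 to 5 for non-fibrillar collagen against Matrigel, and 150 to 569, 353 to 718 and 1814 to 2637 genes; the lowest gene counts came without fibrillar replicate 3, Matrigel replicate 2 and Matrigel replicate 2.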

Other observations

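Luminal and basal mammary markers were also read. Of 7 measured luminal markers only Aldh1a3, an aldehyde dehydrogenase known from luminal progenitors, passed, and it did so in all 3 comparisons, though without Matrigel replicate 2 not in non-fibrillar collagen against Matrigel (adjusted p = 0.055). It read 7.76, 7.83 and 7.79 in fibrillar collagen, 8.41, 8.25 and 8.33 in non-fibrillar collagen and 8.10, 8.06 and 8.14 in Matrigel, so the fibrillar arrays were lowest and the non-fibrillar arrays highest (-0.54 ± 0.050 between the collagens, adjusted p = 0.0059, kept whichever array was left out). Of 8 basal markers only the keratin Krt14 passed, lower than in Matrigel in both fibrillar (-0.17 ± 0.039, adjusted p = 0.041) and non-fibrillar collagen (-0.30 ± 0.039, adjusted p = 0.00098). The first of these Krt14 calls was lost in 8 of the 9 refits without 1 array, all but that without Matrigel replicate 2, when blocked by replicate number (adjusted p = 0.054), in the fit of the 6 arrays compared and after either rescaling (quantile or centring).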
